A study of Homo sapiens with 4 samples.

Results

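The mesenchymal state genes described here were 10 regulators and markers of the mesenchymal state of neuroblastoma, chosen by symbol from the 26364 genes listed in each expression table: PRRX1, FOSL1, FOSL2, YAP1, WWTR1, VIM, FN1, SNAI2, TWIST1 and CD44. They were measured by RNA-seq in BE(2)C, a human neuroblastoma line that carries amplified MYCN, in 2 groups of 2 samples. The control group (Ctrl, listed as wild type) was transfected with non-targeting siRNA, and the knockdown group (MYCN KD) with 1 siRNA directed at MYCN. Transfection lasted 6 h in both groups, the labels give the siRNA at 80 nM (the study's methods give a different concentration), and total RNA was taken the next day. Both groups share the amplified MYCN locus, and because a single siRNA and a single line were used, effects of this siRNA on other transcripts and of MYCN loss cannot be told apart. The study's methods call the replicates biological, while neither they nor the labels say that they came from separate cultures, so p-values measure the spread between these samples, part of which may be technical.

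Neuroblastoma cells exist in an adrenergic state, held by factors such as HAND2 and GATA3, and in a more motile mesenchymal state that resembles neural crest and mesenchyme. PRRX1 and the FOS-family AP-1 subunits are factors of the mesenchymal state. YAP1 and its paralog WWTR1 (which encodes TAZ) are coactivators that carry the output of the Hippo pathway, SNAI2 and TWIST1 are factors of the epithelial-mesenchymal transition (EMT), and VIM, FN1 and CD44 encode a filament protein, a matrix protein and a surface receptor that mark mesenchymal cells.

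In MYCN KD cells, 2 of the 10 genes rose past the test: FOSL2 by 1.66-fold and VIM by 1.48-fold. For SNAI2 and TWIST1, each MYCN KD value was below each Ctrl value, and neither gene passed the test. Of the remaining 6 genes, 5 were at low level in both groups and PRRX1 was listed at 0 in all 4 samples. The line thus expressed the 10 genes very unequally, with VIM and TWIST1 high and the regulators PRRX1 and YAP1 at or near 0.

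The values are RPKM (reads on a gene, scaled to its length and to the mapped reads of the sample), which the authors computed after removing unwanted variation from the counts. From the steps between RPKM values, totals of 29055819 to 34142988 reads per sample were recovered, and the 19908 genes above 0 in any sample all came out as whole reads to within 0.05 of a read. Because the RPKM came from adjusted counts, these recovered reads and totals may differ from the sequenced ones. Read intervals here treat them as plain counts, so they only approximate counting error. Taken so, a count of 0 allows up to 3 reads in a sample. Genes were tested on log2(RPKM + 1) with limma and Benjamini-Hochberg adjustment, with a threshold of 0.05 for the adjusted p, over the 11411 genes whose mean RPKM was at least 1. The filter uses the mean over all 4 samples, so a gene under 1 RPKM in 1 group can pass through the other group alone. The fold change of a gene with low RPKM is understated on this scale. Of the tested genes, 48.1% passed the threshold, 25.3% higher and 22.8% lower in MYCN KD. Across genes, the replicates of the 2 groups deviated from their group means in a mirrored way, so the spread within Ctrl and the spread within MYCN KD are not independent estimates.

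MYCN itself checked the labels. The Ctrl samples had 1067.9 and 1073.0 RPKM and the MYCN KD samples 720.2 and 718.0 RPKM. The groups did not overlap, and the level after knockdown was 0.672 of the Ctrl level, with a log2 fold change of -0.57 (SE 0.029, limma adjusted p = 0.00361). MYCN shares 98 exon bases with the antisense gene MYCNOS, and whether counting used strand is not given in the sources used here. MYCNOS was at 27.5 and 28.1 RPKM in Ctrl and at 52.6 and 51.5 RPKM in MYCN KD.

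The regions before the starts of FOSL2 and VIM, the 2 members that rose, are shown with that of YAP1, the only one of the 7 matched members with the letters CACGTG in its window. Each is the 250 bases before the RefSeq gene start on build GRCh38.p14, a later build than the hg19 used for the reads, and is read 5′ to 3′ on the gene's own strand. Capitals mark matches to an E-box (CANNTG, of which CACGTG is the form bound by MYC and MAX) or to the TEAD motif GGAATG.
FOSL2, chr2:28392608-28392857, plus strand: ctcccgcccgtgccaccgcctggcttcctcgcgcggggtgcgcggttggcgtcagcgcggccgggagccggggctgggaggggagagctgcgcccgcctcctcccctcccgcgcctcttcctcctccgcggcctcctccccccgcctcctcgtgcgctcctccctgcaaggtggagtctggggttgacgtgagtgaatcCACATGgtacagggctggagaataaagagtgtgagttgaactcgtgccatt
VIM, chr10:17227991-17228240, plus strand: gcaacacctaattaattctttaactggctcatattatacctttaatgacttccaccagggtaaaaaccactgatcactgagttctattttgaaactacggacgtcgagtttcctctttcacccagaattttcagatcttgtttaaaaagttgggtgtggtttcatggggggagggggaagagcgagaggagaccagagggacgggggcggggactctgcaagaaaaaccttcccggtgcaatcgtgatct
YAP1, chr11:102110197-102110446, plus strand: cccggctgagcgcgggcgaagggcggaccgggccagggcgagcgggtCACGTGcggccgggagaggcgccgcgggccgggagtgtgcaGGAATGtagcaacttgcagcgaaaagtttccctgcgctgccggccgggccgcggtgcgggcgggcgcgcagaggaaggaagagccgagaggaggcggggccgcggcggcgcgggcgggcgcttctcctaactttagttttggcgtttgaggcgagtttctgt

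The motifs were searched on both strands of these windows. CACGTG occurred in 6.49% of 27305 promoters of the same length, any E-box CANNTG in 62.2%, the SNAI2-type E-box CAGGTG in 17.5%, the AP-1 motif TGANTCA in 6.60% and GGAATG in 11.9%; CACGTG and CAGGTG are also counted under CANNTG. The FOSL2 window held CACATG from -51 to -46 and no AP-1 match. The YAP1 window held CACGTG from -203 to -198 and GGAATG from -162 to -157, and the WWTR1 window held CATGTG from -45 to -40 and CAGATG from -34 to -29. No match to any of these motifs was found in the windows of VIM, FN1, CD44 and PRRX1. The G and C share of the printed windows was 69.6% for FOSL2, 46.0% for VIM and 72.0% for YAP1.

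The levels of the 10 genes spanned from 0 to over 200 RPKM. Ranked by their Ctrl means, VIM stood at 156.7 RPKM, TWIST1 at 47.6, FOSL2 at 13.3 and SNAI2 at 3.77, each with both Ctrl samples apart from those of the next gene. FOSL1, WWTR1 and FN1 followed at 0.378, 0.336 and 0.309 RPKM, where the sample ranges of FOSL1 and WWTR1, and of WWTR1 and FN1, overlapped. CD44 at 0.220, YAP1 at 0.0104 and PRRX1 at 0 came last. Against the 19908 genes above 0, VIM lay above 97.7% of Ctrl means, TWIST1 above 91.2%, FOSL2 above 75.9% and SNAI2 above 57.4%, whereas CD44 lay above 31.9% and YAP1 above 11.1%.

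After knockdown the first 4 places were unchanged, with VIM 5.70 times TWIST1 (3.29 times in Ctrl) and TWIST1 1.84 times FOSL2 (3.58 times in Ctrl). FN1 (0.547 RPKM) and WWTR1 (0.429) then lay above FOSL1 (0.322), whose range overlapped that of CD44 (0.308). The 10 genes summed to 218.2 and 227.1 RPKM in the Ctrl samples and to 304.0 and 293.6 RPKM after knockdown. The share of VIM in that sum was 70.6% and 70.2% in Ctrl against 77.3% and 77.4% in MYCN KD, so the sum mainly follows VIM.

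**Figure D1:**
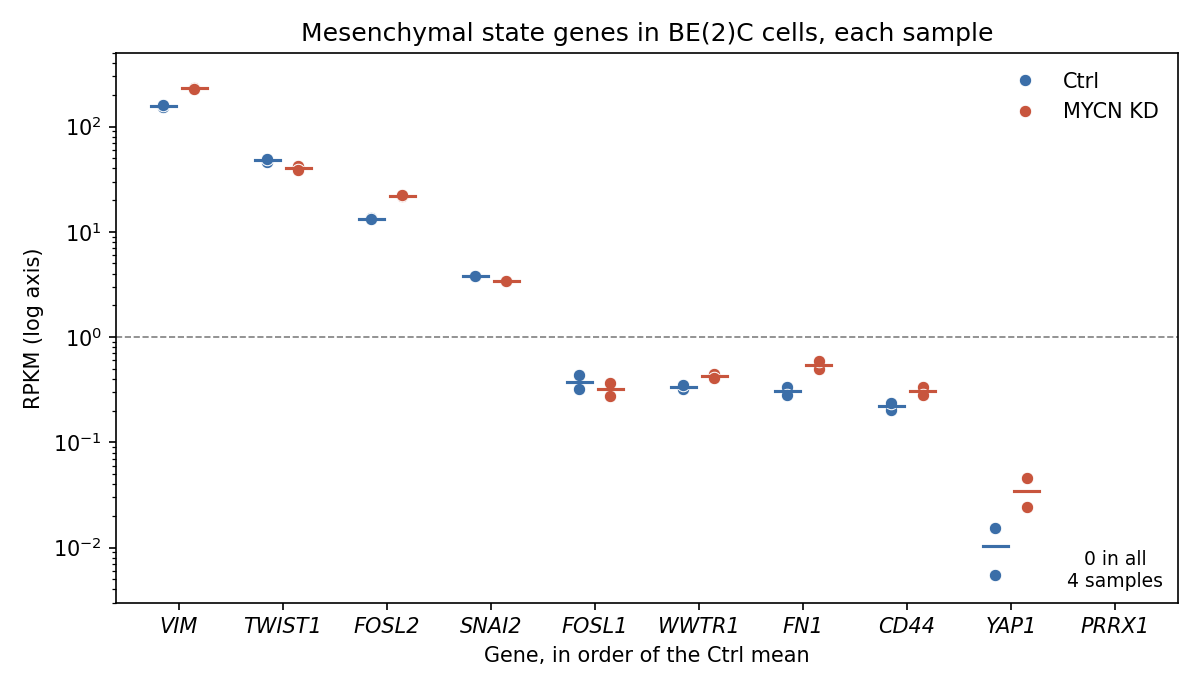
RPKM of the 10 genes on a log axis in the 2 Ctrl samples (blue points) and the 2 MYCN KD samples (red points), with bars at the group means and a dashed line at 1 RPKM. FOSL2 and VIM sit higher in MYCN KD, TWIST1 and SNAI2 slightly lower, and 6 genes lie under the line, PRRX1 at 0.

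Of the 10 genes, 9 were above 0 and 4 had a mean RPKM of at least 1 and were tested (VIM, TWIST1, FOSL2 and SNAI2). Of these 4, limma called 2 higher, against 25.3% of all tested genes, and 0 lower, against 22.8%. Limma voom on the recovered reads gave the same counts, against 25.5% higher and 22.7% lower over all tested genes. SNAI2 and TWIST1 counted as lower at an unadjusted limma p under 0.05 (0.0459 and 0.0317). The 4 genes had a median log2 fold change of 0.22, and over all tested genes it was 0.026. Counting samples alone, 6 genes had both MYCN KD values above both Ctrl values (FOSL2, YAP1, WWTR1, VIM, FN1 and CD44), where 39.3% of the genes above 0 did, and 2 had both below (SNAI2 and TWIST1), where 26.3% did. FOSL1 overlapped between groups.

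**Figure D2:**
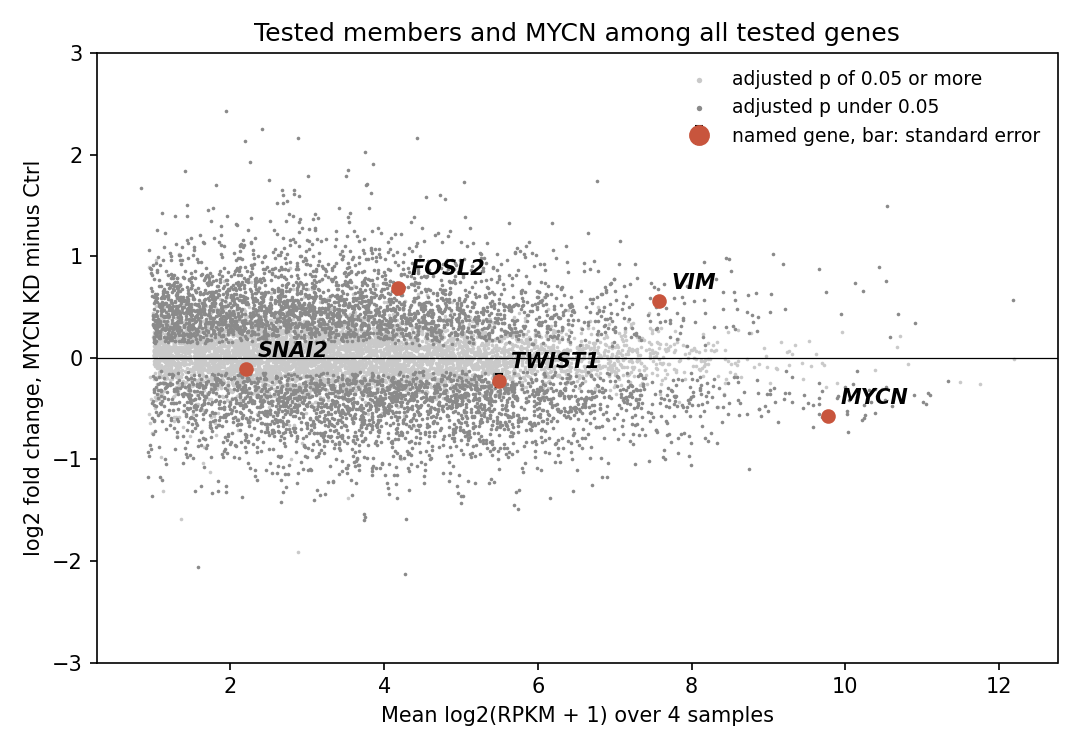
Log2 fold change (MYCN KD minus Ctrl) against mean log2(RPKM + 1) over the 4 samples for the 11411 tested genes, dark grey where the adjusted p was under 0.05, with FOSL2, VIM, SNAI2, TWIST1 and MYCN in red with standard error bars. FOSL2 at 0.69 and VIM at 0.56 lie above 0, SNAI2 at -0.12 and TWIST1 at -0.23 lie just below it, and MYCN lies at -0.57.

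PRRX1 encodes a paired-related homeobox factor of limb and craniofacial mesenchyme. It lies at chr1:170633272-170708562 on the plus strand (GENCODE 44 lifted to GRCh37, the coordinates of hg19, as for the other genes below) and has 4 exons in its canonical transcript. No read was counted on it in any of the 4 samples, so a difference was not detectable at this depth. Among 28 listed factors that mark the mesenchymal state besides these members, 3 were also at 0 in all samples (RUNX2, MEOX1 and MEOX2, named after their values were seen), and 14 were tested, of which 6 rose and 3 fell. Those 14 had a median log2 fold change of 0.22. This list and those below were chosen with earlier results of these data known. Their counts stand beside 25.3% of all tested genes higher and 22.8% lower. SOX9, a factor of neural crest and cartilage, rose from 2.34 ± 0.103 to 4.15 ± 0.172 RPKM (SD, n = 2), and ZNF217, a zinc finger factor, rose from 9.20 to 14.1 RPKM. SMAD3, which carries TGF-beta signals, fell from 4.17 ± 0.0780 to 2.85 ± 0.0548 RPKM (SD, n = 2).

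FOSL2 and FOSL1 encode AP-1 subunits, which bind DNA as dimers with JUN proteins. In FOSL2 (chr2:28615725-28640184, plus strand, 4 exons), RPKM was 13.4 and 13.2 for the Ctrl samples and 22.0 and 22.2 for the MYCN KD samples. The means were 13.3 ± 0.101 and 22.1 ± 0.159 RPKM (SD, n = 2), resting on 1690 to 2739 reads per sample. The difference between the groups was far larger than the spread within either, and FOSL2 rose by 0.69 on the log2 scale (SE 0.036, limma adjusted p = 0.00365).

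FOSL1 (chr11:65659520-65667859, minus strand, 4 exons) stood at 0.434 and 0.321 RPKM in Ctrl and, after knockdown, at 0.275 and 0.369 RPKM. These values rest on 14 to 26 reads per sample and overlapped between groups. The ratio of MYCN KD to Ctrl was 0.852, with an exact 95% interval of 0.528 to 1.36 from the reads, which covers counting error only, as do the read intervals below. The log2 ratio of FOSL2 to FOSL1 (pseudocount 1) lay at 3.33 and 3.43 in Ctrl and, after knockdown, at 4.17 and 4.08. The pseudocount of 1 was above every FOSL1 value. This log2 ratio therefore mostly follows FOSL2 and understates the distance between the levels of these genes. The samples did not overlap, and the difference of 0.75 had p = 0.333 in an exact two-sided permutation test, the smallest p that 2 against 2 samples allow.

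Of 15 other AP-1 subunit genes listed, 10 were tested, 6 rose and 0 fell, with a median log2 fold change of 0.42. At an unadjusted p under 0.05, and with voom, these counts were also 6 and 0. ATF3, a stress-induced subunit, rose from 5.97 ± 0.0411 to 12.2 ± 0.0898 RPKM (SD, n = 2), and ATF7 rose from 8.26 to 13.9 RPKM. JUND, a JUN-family partner and the most abundant of them, rose from 93.5 ± 4.46 to 146.9 ± 6.74 RPKM (SD, n = 2).

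By the pattern of log2(RPKM + 1) over the 4 samples, each gene centred on its own mean, the 3 tested genes nearest to FOSL2 were DCHS1, a protocadherin gene (Euclidean distance 0.00476), CCDC159 (0.00720) and SFXN3, a mitochondrial transporter gene (0.00908). DCHS1 had a mean of 0.942 RPKM in Ctrl and 2.12 RPKM in MYCN KD, and passed the filter only through its MYCN KD values. SFXN3 went from 16.3 and 16.0 RPKM (Ctrl) to 26.5 and 26.9 RPKM (MYCN KD), and its log2 fold change of 0.69 was that of FOSL2. With 4 samples in 2 groups, such a likeness mostly restates the size of the fold change.

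SNAI2 encodes SLUG, a zinc finger repressor that binds E-boxes and lowers cadherin genes, and TWIST1 encodes a basic helix-loop-helix (bHLH) factor of neural crest and mesoderm. SNAI2 (chr8:49830157-49833988, minus strand, 3 exons) was at 3.76 and 3.78 RPKM in Ctrl against 3.41 and 3.40 RPKM after knockdown, on 209 to 271 reads. Both MYCN KD values were lower, by a ratio of 0.903, and the log2 fold change of -0.12 (SE 0.038) missed the threshold (limma adjusted p = 0.0816). The exact 95% interval of that ratio from the reads, 0.793 to 1.03, includes 1.

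TWIST1 (chr7:19155091-19157259, minus strand, 2 exons) gave 45.8 and 49.5 RPKM for Ctrl against 42.1 and 39.1 RPKM after knockdown, on 2014 to 2636 reads. Its means were 47.6 ± 2.61 and 40.6 ± 2.11 RPKM (SD, n = 2), and the groups did not overlap. The ratio was 0.852 and the log2 fold change of -0.23 (SE 0.065) missed the threshold (limma adjusted p = 0.0615). Counting error alone gave an interval of 0.817 to 0.887 for the ratio. Both factors passed the threshold only when the replicates were paired crosswise, an arrangement chosen after seeing the data.

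Of 16 other EMT factors listed, 7 were tested, and limma called 0 higher and 0 lower, with a median log2 fold change of 0.07. At an unadjusted p under 0.05, and with voom, 1 was higher and 0 were lower. That 1 was TCF4, an E protein gene named here after its values were seen, which had 10.8 ± 1.98 RPKM in Ctrl and 18.4 ± 3.28 RPKM in MYCN KD (SD, n = 2). Its limma adjusted p was 0.0503 on log2(RPKM + 1) and 0.0497 with voom. The most abundant, the E protein gene TCF3, had 49.2 ± 0.736 RPKM in Ctrl and 46.1 ± 0.698 RPKM in MYCN KD (SD, n = 2). Among 9 genes of E proteins, which pair with TWIST1, ID proteins, which hold E proteins back, and the HAND factors, 8 were tested, 1 rose and 0 fell, with TCF4 again the gene that voom added. HAND2, a bHLH factor of sympathetic neurons, rose from 214.3 ± 7.43 to 316.2 ± 10.6 RPKM (SD, n = 2). HAND1 was the highest at 570.0 ± 69.4 RPKM in Ctrl and 530.8 ± 62.8 RPKM in MYCN KD (SD, n = 2), a difference within the spread between replicates.

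WWTR1 and YAP1 encode paralogous coactivators that lack a DNA-binding domain and act through TEAD factors when Hippo kinases are off. WWTR1 (chr3:149235022-149375812, minus strand, 7 exons) was at 0.322 and 0.35 RPKM in Ctrl against 0.449 and 0.409 RPKM in MYCN KD, from 59, 60, 70 and 68 reads. Both MYCN KD values were higher, and the ratio of 1.28 had an exact 95% interval of 0.993 to 1.65 from the reads. It shares 756 exon bases with WWTR1-AS1 on the other strand, which was at 0.0184 to 0.0761 RPKM.

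YAP1 (chr11:101981178-102104155, plus strand, 9 exons) was nearly absent: 3 and 1 reads were counted in Ctrl and 4 and 8 in MYCN KD, or 0.0154, 0.00548, 0.0241 and 0.0453 RPKM. The ratio over both samples was 3.31, with an exact 95% interval of 1.002 to 14.1, so the size of any difference is hardly fixed at this depth. The log2 ratio of WWTR1 to YAP1 (pseudocount 1) lay at 0.381 and 0.425 in Ctrl and, after knockdown, at 0.501 and 0.431. The pseudocount of 1 was far above every YAP1 value, so this log2 ratio mostly follows WWTR1. The difference of 0.063 had p = 0.333 in the exact two-sided permutation test, and with a pseudocount of 0.1 it was -0.00391, so no direction can be given.

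Of 24 listed Hippo kinases, adaptors, VGLL cofactors and TEAD factors, 16 were tested, 5 rose and 2 fell, with a median log2 fold change of 0.20. AMOT, among those that rose, had a Ctrl mean of 0.981 RPKM and passed the filter only through its MYCN KD values. TEAD1, a DNA-binding partner of both coactivators, rose from 15.3 ± 2.17 to 28.4 ± 3.93 RPKM (SD, n = 2), and TEAD3 rose from 3.54 to 5.46 RPKM. NF2, which encodes the Hippo activator merlin, fell from 22.0 ± 0.619 to 12.8 ± 0.366 RPKM (SD, n = 2), and VGLL4, a TEAD cofactor that competes with YAP1, fell from 6.75 to 4.07 RPKM.

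Of 22 listed YAP and TAZ target genes, 7 were tested, 6 rose and 0 fell (6 and 0 also at an unadjusted p under 0.05 and with voom), with a median log2 fold change of 0.38. The target genes most used as reporters, CTGF and CYR61 (named after their values were seen), were among the 15 below the filter. CTGF was at 0.125 and 0.254 RPKM in Ctrl against 0.499 and 0.248 RPKM after knockdown, and the groups overlapped. CYR61 was at 0.192 and 0.191 RPKM in Ctrl against 0.420 and 0.423 RPKM after knockdown, without overlap. NT5E, which encodes the ectonucleotidase CD73, rose from 6.15 ± 0.695 to 17.7 ± 1.95 RPKM (SD, n = 2). ASAP1, the most abundant target, was at 23.5 ± 2.42 RPKM in Ctrl and 21.3 ± 2.11 RPKM in MYCN KD (SD, n = 2) and did not pass.

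**Figure D3:**
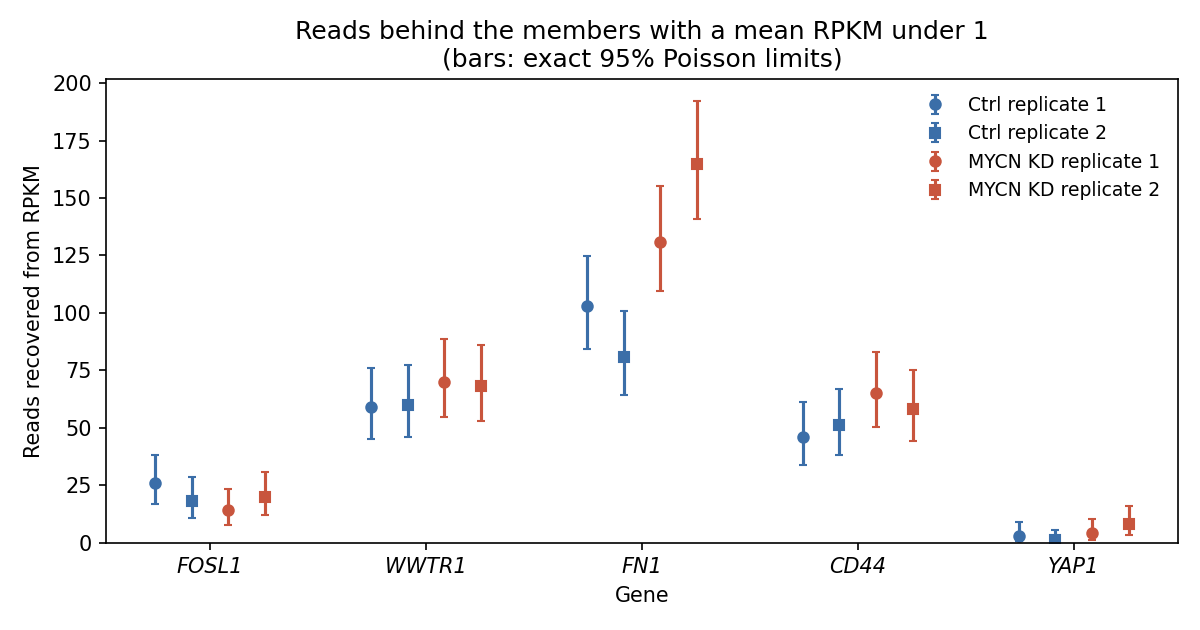
Reads recovered from RPKM for the 5 genes above 0 with a mean RPKM under 1, in each of the 4 samples (circles replicate 1, squares replicate 2, blue Ctrl, red MYCN KD), with exact 95% Poisson limits as bars. FN1 has 131 and 165 reads in MYCN KD against 103 and 81 in Ctrl, and YAP1 has 1 to 8 reads.

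VIM encodes vimentin, the main intermediate filament protein of mesenchymal cells. VIM (chr10:17270240-17279592, plus strand, 10 exons) rose from 154.0 and 159.4 RPKM in Ctrl to 235.0 and 227.2 RPKM in MYCN KD, on 10887 to 15017 reads. Its means of 156.7 ± 3.83 and 231.1 ± 5.51 RPKM (SD, n = 2) were far apart, with a log2 fold change of 0.56 (SE 0.039, limma adjusted p = 0.00468). It shares 656 exon bases with VIM-AS1 on the other strand, which at 0.118 to 0.207 RPKM was a small fraction of VIM. In bulk samples, more cells with a high VIM level and more VIM RNA in each cell cannot be told apart, and the same holds for FOSL2 and the genes below.

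Of 16 other intermediate filament and lamin genes listed, 11 were tested, 4 rose and 3 fell, with a median log2 fold change of -0.09, so a rise like that of VIM was not general among them. PRPH, the peripheral neuron filament gene, rose from 69.1 ± 6.99 to 132.9 ± 12.9 RPKM (SD, n = 2), and LMNA, which encodes A-type lamins, rose from 136.7 ± 10.7 to 228.9 ± 17.3 RPKM (SD, n = 2). NEFH, the heavy neurofilament gene, fell from 93.0 ± 0.386 to 48.3 ± 0.270 RPKM (SD, n = 2), and LMNB1 fell from 56.5 to 38.3 RPKM. NEFM, the most abundant by the mean over the 4 samples, was at 216.3 ± 10.6 RPKM in Ctrl and 193.3 ± 9.005 RPKM in MYCN KD (SD, n = 2) and did not pass. KRT19, an epithelial keratin gene that has processed pseudogenes, rose from 13.9 to 25.9 RPKM.

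FN1 encodes fibronectin, a matrix protein bound by integrins. FN1 (chr2:216225588-216300791, minus strand, 46 exons) measured 0.335 and 0.282 RPKM in Ctrl against 0.501 and 0.593 RPKM in MYCN KD, from 103, 81, 131 and 165 reads. The groups did not overlap, and the ratio of 1.77 had an exact 95% interval of 1.47 to 2.14 from the reads. FN1 lay below the filter of the test. Without that filter it passed, with a log2 fold change of 0.24 (SE 0.044, limma adjusted p = 0.0375), in a fit that called 17.0% of all 19908 genes, and 11.6% of those with a mean RPKM under 1, as higher. With limma voom on the recovered reads, a fit added after seeing the data that called 18.8% of all genes and 12.6% of those under 1 RPKM as higher, its log2 fold change was 0.82 (SE 0.142, adjusted p = 0.0260).

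CD44 encodes the receptor for hyaluronan. CD44 (chr11:35160718-35253949, plus strand, 18 exons) measured 0.202 and 0.239 RPKM in Ctrl against 0.335 and 0.281 RPKM in MYCN KD, from 46 to 65 reads per sample. Both MYCN KD values were higher, and the ratio of 1.40 had an exact 95% interval of 1.06 to 1.84 from the reads. It did not pass without the filter (limma adjusted p = 0.108), nor did WWTR1 (0.0718), YAP1 (0.189) or FOSL1 (0.520). With FN1, WWTR1 and YAP1, CD44 was 1 of 4 genes under 1 RPKM with both MYCN KD values higher, a pattern seen in 37.9% of the 8497 genes above 0 at that level.

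Of 31 listed fibronectin receptors, crosslinkers and matrix partners, 16 were tested, 13 rose and 1 fell, with a median log2 fold change of 0.66. Among those that rose, COL1A1 and COL6A3 (named after their values were seen) had Ctrl means of 0.733 and 0.821 RPKM. They passed the filter only through their MYCN KD values. LGALS1, which encodes a galectin that binds matrix glycoproteins, rose from 891.3 ± 54.9 to 2511.6 ± 146.6 RPKM (SD, n = 2). TGM2, a crosslinking enzyme that also binds fibronectin, rose from 6.90 ± 0.618 to 17.8 ± 1.51 RPKM (SD, n = 2), and COL6A2, a collagen VI chain, rose from 2.18 to 4.93 RPKM. SDC1, which encodes the heparan sulfate proteoglycan syndecan 1, fell from 18.1 ± 1.59 to 7.15 ± 0.626 RPKM (SD, n = 2).

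For CD44, 22 genes of hyaluronan turnover, cytoskeletal linkers, sheddases and splicing factors were listed and 12 tested, of which 3 rose and 4 fell, with a median log2 fold change of 0.14. MSN and EZR, which encode linkers of CD44 to actin, rose from 325.8 ± 5.99 to 453.4 ± 8.06 RPKM and from 120.9 ± 4.79 to 159.2 ± 6.08 RPKM (SD, n = 2). MMP14, a membrane protease, rose from 1.72 to 3.91 RPKM, and HMMR, another hyaluronan receptor with a role in mitosis, fell from 9.80 ± 0.390 to 5.72 ± 0.226 RPKM (SD, n = 2). HNRNPA1, a splicing factor gene with many processed pseudogenes, fell from 12.7 to 9.34 RPKM, and SRSF1, a splicing factor gene, fell from 71.3 to 55.4 RPKM.

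Among 19 listed cadherins and junction genes, 8 were tested, 7 rose and 0 fell (7 and 0 also at an unadjusted p under 0.05 and with voom), with a median log2 fold change of 0.79. Genes of mesenchymal and of epithelial cells were both among those that rose. The epithelial cadherin gene CDH1, named here after its values were seen, was near 0 and not tested. It had 0.00608 and 0.00649 RPKM in Ctrl against 0.0286 and 0.0201 RPKM in MYCN KD. CDH2, the mesenchymal and neural cadherin, rose from 46.4 ± 3.93 to 89.1 ± 7.34 RPKM (SD, n = 2). CLDN4, an epithelial tight junction gene, rose from 3.17 ± 0.274 to 10.1 ± 0.827 RPKM (SD, n = 2), and JUP, which encodes plakoglobin, rose from 49.9 ± 3.01 to 105.0 ± 6.05 RPKM (SD, n = 2).

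**Figure D4:**
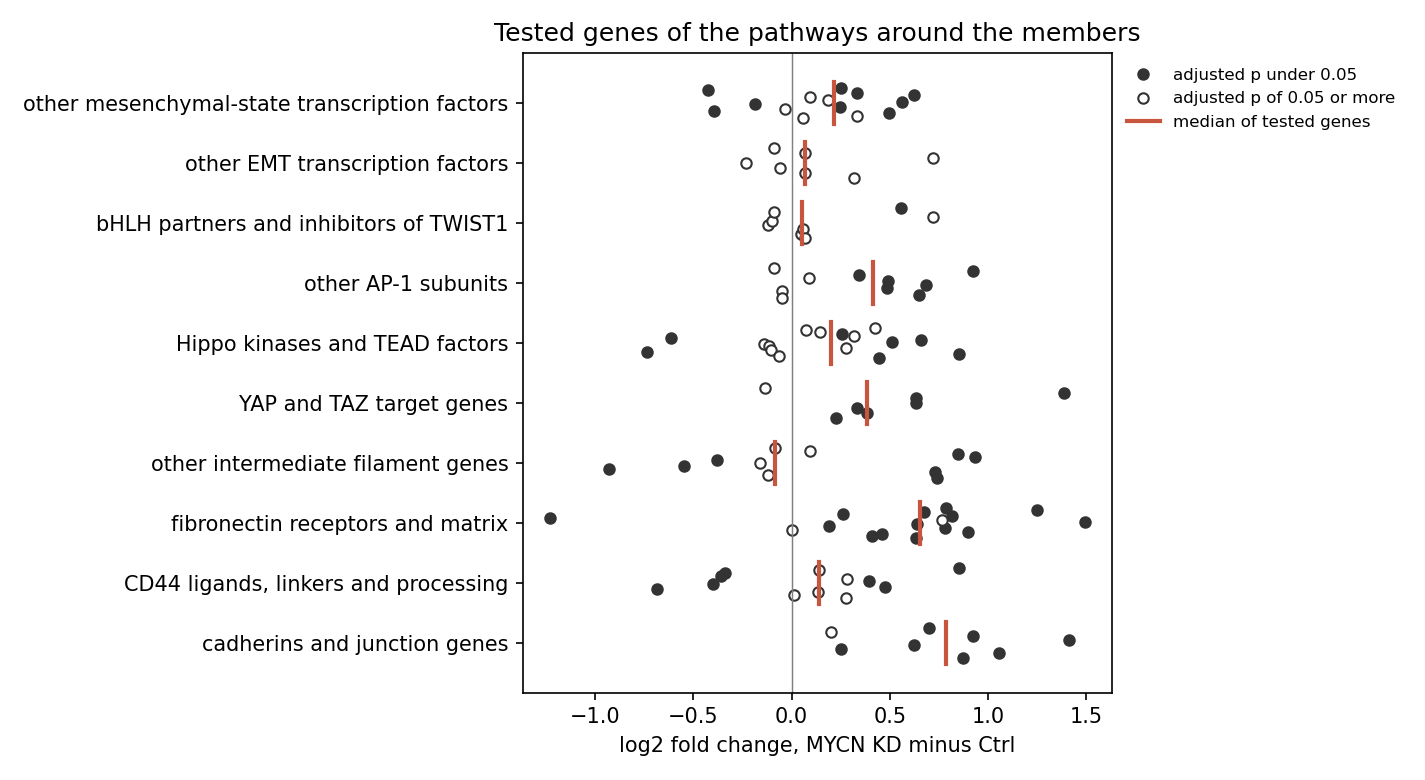
Log2 fold change (MYCN KD minus Ctrl) of each tested gene in 10 lists around the members, filled where the limma adjusted p was under 0.05, with a red bar at each list's median. Medians run from -0.09 for the other intermediate filament genes to 0.79 for the cadherins and junction genes, and the other EMT factors hold no filled point.

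Markers of cell types were read beside these values, and their part in the results was not tested. All 10 adrenergic markers were expressed in every sample, with a summed RPKM of 1798.4 to 1944.0 in Ctrl and 2652.6 to 2877.5 in MYCN KD. Of them 5 rose, among them PHOX2A from 256.2 ± 14.5 to 503.4 ± 27.3 RPKM (SD, n = 2). Fibroblast markers summed to 233.1 to 239.1 RPKM in Ctrl and 276.8 to 283.6 in MYCN KD, mostly from THY1, a surface gene that neurons also express, and POSTN and FAP were at 0 in all samples. Of the 5 tested fibroblast markers 4 rose, COL1A1 from 0.733 to 1.76 RPKM and DCN from 5.05 to 8.55 RPKM. With voom, 3 of these markers were higher and 0 were lower. COL1A1 was under 1 RPKM in both Ctrl samples and passed the filter only through its MYCN KD values. Its place among those that rose thus follows in part from the filter.

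The other marker lists were low. Epithelial markers summed to 14.5 to 15.4 RPKM in Ctrl and 27.2 to 28.7 in MYCN KD, with KRT5 at 0 and KRT19 the only one tested. Schwann and glial markers summed to 6.43 to 6.77 RPKM and 10.999 to 11.6 RPKM, and S100B, a calcium-binding protein gene of glia, rose from 3.95 ± 0.137 to 7.13 ± 0.223 RPKM (SD, n = 2). Immune markers summed to 5.33 to 6.22 RPKM and 11.1 to 13.3 RPKM, where CD68, a lysosomal gene, rose from 3.86 ± 0.570 to 10.4 ± 1.47 RPKM (SD, n = 2). Endothelial markers summed to 0.291 to 0.367 and 0.515 to 0.644 RPKM, and none of the 4 was tested.

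The calls on FOSL2 and VIM held in each of the 14 alternative settings run, with log2 fold changes of 0.68 to 0.75 and 0.53 to 0.68. Their highest limma adjusted p over these settings was 0.00680 for FOSL2 and 0.00898 for VIM. SNAI2 and TWIST1 kept a negative sign in all settings that could test them, at -0.19 to -0.067 and -0.28 to -0.16.

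**Figure D5:**
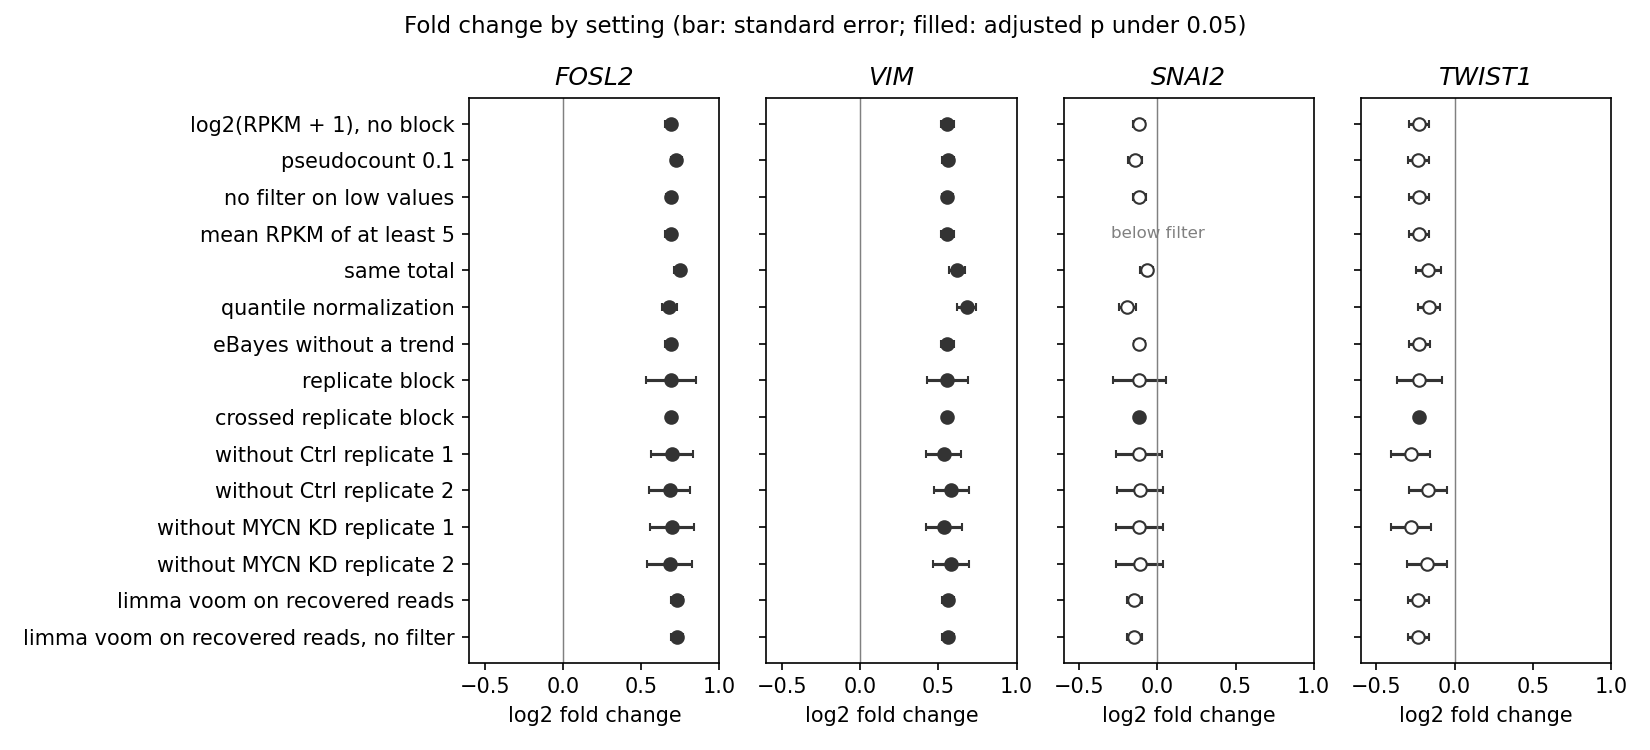
Log2 fold change (MYCN KD minus Ctrl) with its standard error for FOSL2, VIM, SNAI2 and TWIST1 in each setting, filled where the adjusted p was under 0.05. FOSL2 and VIM are filled throughout between 0.53 and 0.75, while SNAI2 and TWIST1 lie below 0 and are filled with the crossed replicate block only. That block called nearly all tested genes.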

How the data were processed

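RNA-seq of 2 Ctrl and 2 MYCN KD samples of BE(2)C cells was analysed. Per the labels and methods, the upstream steps were mapping to hg19 (HISAT2 2.1.0), counting on RefSeq genes (featureCounts), modelling (DESeq2) and removal of unwanted variation (RUVSeq). From the adjusted counts the authors calculated the deposited RPKM, 1 table per sample. The RUVSeq settings are not given in the sources used here. This adjustment can shrink the spread between replicates, and counting error covers only part of the precision.

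The test was limma 3.58.1 (R 4.3.3) on log2(RPKM + 1), with a trend in eBayes, 2 residual degrees of freedom and no block. Benjamini-Hochberg adjustment ran over the 11411 genes whose mean RPKM was at least 1. The 2 ratios were compared by exact permutation. Reads were recovered from the RPKM steps and thus follow the adjusted counts. Read intervals are exact for these numbers (Clopper-Pearson or Poisson). Other steps used scipy 1.17.1, pandas 2.3.3 and numpy 2.4.6 under Python 3.11.15, with figures from matplotlib 3.10.9, and scripts were tested on simulated data. The members and gene lists were chosen with earlier results of these data known. From each list, up to 3 tested genes with the largest rise and 3 with the largest fall past the threshold, and the gene with the highest mean RPKM, could be named, along with the members, MYCN and the 3 genes nearest to the member with the largest change. Gene positions came from GENCODE 44 lifted to GRCh37. RefSeq promoter windows matched 7 of the 10 members. Some marker genes are not reported here. Alternatives were another pseudocount, other filters and scalings, an eBayes prior with no trend, a fit with the replicate number as block, omission of single samples, and limma voom on the recovered reads. A crossed block and limma voom without a filter were added after seeing the data.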

Additional observations from a re-analysis of the deposited data

How the results depend on the processing

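Direction and side of the threshold held for FOSL2, VIM and MYCN under each alternative run. When single samples were left out, the log2 fold change was 0.681 to 0.696 for FOSL2, 0.533 to 0.583 for VIM, -0.577 to -0.570 for MYCN, -0.118 to -0.112 for SNAI2 and -0.281 to -0.172 for TWIST1. The lone sample left in a group is then assumed to vary like the other group. The genes called higher numbered 2460 to 2781 and those lower 2153 to 2429 (2890 and 2599 with all samples), the members called higher stayed at 2 and lower at 0, and 57 to 65 list genes were called (64 with all samples). The log2 ratio differences ranged from 0.0286 to 0.0979 for WWTR1 to YAP1 and from 0.696 to 0.8001 for FOSL2 to FOSL1.

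The number of genes called higher fell to 1868 when the filter was a mean of 5 RPKM, where fewer genes were tested. The difference in the WWTR1 to YAP1 ratio reversed to -0.00391 with a pseudocount of 0.1. Pseudocounts of 1 and 0.1 both exceed every YAP1 value (0.00548 to 0.0453 RPKM), so the pseudocount largely sets the YAP1 term of this ratio. Without a filter, and with limma voom without a filter, 3 members were higher, FN1 being added. The median log2 fold change of all genes in a fit was 0.104 with limma voom without a filter and 0.0312 with limma voom and the filter. On log2(RPKM + 1) it was 0.0115 without a filter and 0.026 with it.

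In the adjusted values, deviations of the first replicates from their group means correlated at -0.985 over 11411 genes. These values come after the removal of unwanted variation, so they cannot tell whether the samples were paired in the experiment. The replicate block gave 2077 genes higher, 1851 lower and 55 list genes, and 2 members higher and 0 lower. The block was also crossed, a pairing added after seeing the data. Of the 11411 tested genes, 5910 were then higher and 5262 lower, with 2 members lower and 104 list genes past the threshold. SNAI2 (-0.12, limma adjusted p = 3.80e-05) and TWIST1 (-0.23, 3.49e-06) passed only there, where nearly all tested genes passed. Depth limits the 5 members under 1 RPKM, most of all YAP1.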
